A study of Mus musculus with 12 samples.

Results

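The genes described here are 8 long noncoding RNAs known as RNAs that largely stay in the nucleus: Malat1, Neat1, Meg3, Rian, Mirg, Miat, Snhg11 and Snhg14. They were taken by symbol from a table of read counts for 54427 genes, all 8 were found, and all 8 were among the 17227 genes with enough counts to be tested. RNA came from mouse hippocampus in 12 libraries, 3 in each of 4 groups: WT without either modification, 5xFAD, Ulk1OV, and 5xFAD;Ulk1OV, which carries both. 5xFAD is a transgenic line in which mutant human transgenes are driven in neurons by Thy1 promoter elements and amyloid plaques form. Ulk1OV stands for overexpression of ULK1, the kinase that starts autophagy. Its construct and the age of the mice were not given in the sources used here. The RNA was from whole tissue, so where in the cell each RNA lay was not measured. In such a sample fewer cells of a type and less RNA per cell cannot be told apart. The labels do not say that the 3 libraries of a group came from separate animals, so p-values reflect only the variation among these libraries, and part of it may be technical.

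Libraries held 16149992 to 18547132 counts, of which the 8 RNAs together took 0.136% to 0.228%. The third library labelled 5xFAD;Ulk1OV stood apart from its label: App, whose mouse gene also collects reads of the transgene, was at 1310 CPM (counts relative to library size) there and at 2200.6 to 2667 CPM in the other 5 libraries labelled with 5xFAD, against 1241 to 1493 CPM in the 6 without it. Several of the values that rest on that library are given with and without it. Ulk1 itself was at 77.6, 81.8 and 74.1 CPM in WT and at 102, 87.7 and 84.6 CPM in Ulk1OV, groups that did not overlap, with a log2 fold change of 0.23 ± 0.11 that was not called (edgeR adjusted p = 0.229). It was at 63.5 to 86.3 CPM in 5xFAD and 97.1, 98.5 and 85.1 CPM in 5xFAD;Ulk1OV, which overlapped (0.35 ± 0.11, edgeR adjusted p = 0.144). Whether this gene collects reads of the construct is not known here, and Ulk1OV is used as the name of a label. The libraries also differed in how a gene's count depended on its GC content. The correlation across genes between GC content and a library's deviation from the mean ran from -0.33 in 5xFAD replicate 2 to 0.30 in 5xFAD;Ulk1OV replicate 2. It was 0.10 to 0.18 in WT and 0.10 to 0.30 in 5xFAD;Ulk1OV. In 5xFAD it was -0.33 to 0.01 and in Ulk1OV -0.32 to -0.08. The trend thus differed between the groups compared, and removing it may also remove a difference between groups. These cannot be told apart here. As a check of the labelled tissue, 12 neuron markers summed to 10374 to 13827 CPM with none at 0 in any library.

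Malat1 and Neat1 are neighbours, transcribed from the same strand and organised into different nuclear bodies: Malat1 gathers in nuclear speckles, where splicing factors are stored, and the long form of Neat1 is the scaffold on which paraspeckles assemble. Meg3, Rian and Mirg lie in 1 row in the Dlk1-Dio3 imprinted domain. They are expressed from the maternal chromosome, and Rian and Mirg host many snoRNAs and microRNAs. Miat is a neuronal RNA with copies of the intron branch point sequence that splicing factor SF1 binds. Snhg11 and Snhg14 are snoRNA host genes, and Snhg14 runs from the Prader-Willi domain across Ube3a on the opposite strand, where in neurons it silences the paternal Ube3a copy.

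In GENCODE M21 on GRCm38, Malat1 (chr19:5795690-5802672, minus strand) is 1 exon block of 6.98 kb. Neat1 (chr19:5824708-5845478, minus strand) is 1 block of 20.8 kb that ends 22.0 kb upstream of the start of Malat1. Meg3 (chr12:109541001-109571726), Rian (chr12:109603940-109661716) and Mirg (chr12:109729764-109749460) follow each other on the plus strand with gaps of 32.2 and 68.0 kb. Miat is at chr5:112213228-112229395 on the minus strand. Snhg11 is at chr2:158375638-158386145 on the plus strand, and GENCODE M21 lists it as protein coding. Snhg14 spans 668 kb at chr7:59307924-59975759 on the minus strand, and its exons share 1803 bases with Ube3a on the other strand. Counting by strand was not given in the sources used here, and reads from the shared stretch cannot be assigned to Snhg14 or Ube3a.

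How each RNA ends bears on whether a library can hold it. Stretches at or near the ends of the nuclear body RNAs are therefore shown first, 5′ to 3′, from GENCODE M21 transcripts. The Neat1 stretches are the last bases of their transcripts. The Malat1 stretch is bases 6632 to 6691 of an annotated transcript of 6983 bases. Capitals mark the A-rich tract or, in the short form of Neat1, the polyadenylation signal AATAAA.
Malat1 A-rich tract (chr19:5795982-5796041, minus strand): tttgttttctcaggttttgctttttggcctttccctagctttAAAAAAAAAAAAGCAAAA
Neat1 long form, last 60 bases (chr19:5824708-5824767, minus strand): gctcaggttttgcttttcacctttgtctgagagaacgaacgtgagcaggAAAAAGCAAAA
Neat1 short form, last 60 bases (chr19:5842307-5842366, minus strand): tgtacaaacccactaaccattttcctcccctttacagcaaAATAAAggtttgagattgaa

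Malat1 and the long form of Neat1 are known to end in a triple helix built on such a tract, without a poly(A) tail, while the short form of Neat1 is polyadenylated. Gene counts do not separate the forms of Neat1. Of 14 RNAs without a poly(A) tail that were looked up in the table, 5 had 0 counts in every library, Rn7sk had 4 to 25, and no other exceeded 9 in any library. Selection of poly(A) RNA was not given in the sources used here.

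The repeat for which Miat is known is shown from its longest transcript, with each TACTAAC in capitals.
Miat repeat stretch (chr5:112216752-112216812, minus strand): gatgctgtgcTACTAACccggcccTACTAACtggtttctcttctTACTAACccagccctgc
This 61-base stretch holds 3 copies of TACTAAC on the transcript strand, and the whole transcript holds 6. Of 55450 genes with a transcript in GENCODE M21, 3 have a longest transcript with at least as many, Miat among them. Neat1 has 1 copy and the other 6 RNAs have 0.

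Promoters are shown for Meg3, for Snhg11, whose level followed that of Meg3 across libraries, and for Rian, the neighbour of Meg3 for which no such relation passed the test. They run from 250 bases before to 50 bases after the start in RefSeq on GRCm38.p6, whose promoter table held 7 of the 8 genes. TGACGTCA (the cyclic AMP response element, read the same on both strands), the TATA motif TATAAA, the box CCAAT and the Sp1 motif GGGCGG were searched on both strands, and capitals mark the matches.
Meg3 promoter (chr12:109540746-109541045, plus strand): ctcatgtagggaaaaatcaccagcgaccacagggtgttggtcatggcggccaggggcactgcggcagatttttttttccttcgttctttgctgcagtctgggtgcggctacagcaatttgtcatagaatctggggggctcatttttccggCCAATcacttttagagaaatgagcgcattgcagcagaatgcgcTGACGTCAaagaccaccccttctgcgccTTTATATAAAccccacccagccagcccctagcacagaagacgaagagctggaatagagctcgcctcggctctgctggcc
Snhg11 promoter (chr2:158375463-158375762, plus strand): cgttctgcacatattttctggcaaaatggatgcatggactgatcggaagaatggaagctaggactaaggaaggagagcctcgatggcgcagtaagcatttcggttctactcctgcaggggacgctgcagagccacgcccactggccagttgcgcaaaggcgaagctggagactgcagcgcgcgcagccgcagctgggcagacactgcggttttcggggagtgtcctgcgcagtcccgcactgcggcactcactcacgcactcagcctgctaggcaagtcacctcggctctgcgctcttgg
Rian promoter (chr12:109603695-109603994, plus strand): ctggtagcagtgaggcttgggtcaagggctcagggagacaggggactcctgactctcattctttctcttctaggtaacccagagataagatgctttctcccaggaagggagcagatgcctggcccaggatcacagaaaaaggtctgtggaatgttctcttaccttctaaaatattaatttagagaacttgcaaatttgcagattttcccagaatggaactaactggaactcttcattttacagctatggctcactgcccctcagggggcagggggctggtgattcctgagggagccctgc

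The Meg3 window held TGACGTCA, which is in 1.79% of 32851 RefSeq promoters of the same length, with 2 overlapping matches to TATAAA, 1 on each strand (in 13.6% of promoters), and 1 CCAAT (in 37.4%). The table lists a second Meg3 promoter inside the gene (chr12:109545148-109545447), not shown, which had none of these motifs and 1 CG dinucleotide, against 13 in the first. None of these motifs, nor GGGCGG (in 35.7%), was found in the Snhg11 or Rian window. The Snhg11 window had 60% GC and 21 CG dinucleotides and the Rian window 49.3% GC and 0, against a median of 52.7% and 7 over all promoters. Mirg also followed Meg3, and its window (chr12:109734731-109735030), not shown, lies inside the GENCODE gene. The Mirg window held 1 CCAAT, none of the other motifs, and 10 CG dinucleotides. A match is a run of letters and not a shown binding site.

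Per kb of exon, levels spread over more than an order of magnitude, and this is the scale on which levels of different genes are compared. Ratios of counts between 2 genes are given further on only to compare libraries. Over the 12 libraries the median was highest for Snhg11 (42.9 CPM per kb), followed by Rian (29.2), Malat1 (28.1) and Meg3 (25.6), whose ranges over libraries overlapped. Miat (6.31) and Neat1 (3.32) were next, and their ranges overlapped too. Snhg14 (1.57) and Mirg (0.91) were lowest, with overlapping ranges below that of Neat1. The Neat1 value divides by 20.8 kb, the length of its long form. Reads of the short form, 3004 bases long, would give a higher level per kb over their own length. Malat1 and the long form of Neat1 lack a poly(A) tail, and whether poly(A) RNA was selected is not known here. The places of Malat1 and Neat1 in this order are therefore uncertain. Mirg rested on 78 to 205 counts per library and the others on at least 558. Small RNA genes annotated inside these genes had few counts. The 17 microRNA and snoRNA genes inside Rian summed to 285 counts over all 12 libraries, the 14 microRNA genes inside Mirg to 82, and the 208 snoRNA genes inside Snhg14 to 99, with 197 of them at 0 everywhere.

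Malat1 stood at 198, 160 and 233 CPM in the 3 WT libraries and at 186, 212 and 181 CPM in 5xFAD. Ulk1OV libraries had 326, 195 and 270.5 CPM, and those labelled 5xFAD;Ulk1OV had 127, 135 and, in the library that stood apart from its label, 212 CPM. The 5xFAD values lay within the wider WT range, the 2 highest levels were in Ulk1OV, and the lowest were the first 2 of 5xFAD;Ulk1OV.

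Neat1 was measured at 105, 48.0 and 169 CPM in WT and at 61.7, 80.1 and 90.8 CPM in 5xFAD. The Ulk1OV libraries had 66.2, 68.3 and 49.3 CPM, and those labelled 5xFAD;Ulk1OV had 69.5, 61.7 and 86.4 CPM. The WT group held both the lowest and the highest of the 12 values.

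Meg3 was at 429, 437 and 491 CPM in WT and at 566, 302 and 327.5 CPM in 5xFAD. Ulk1OV libraries had 616, 552.5 and 495 CPM, above all 3 WT values, and those labelled 5xFAD;Ulk1OV had 433, 340.0 and, in replicate 3, 797 CPM. Replicate 3 had the highest Meg3 level of the 12 libraries. Mirg, the microRNA host downstream, had the same highest and lowest library: WT had 6.76, 6.43 and 7.66 CPM, 5xFAD 8.87, 4.38 and 4.80 CPM, Ulk1OV 6.55, 6.90 and 7.19 CPM, and the doubly labelled group 5.76, 5.59 and 11.4 CPM.

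Rian, between Meg3 and Mirg, was the steadiest of the 8. WT libraries had 446, 559 and 449 CPM, 5xFAD libraries 533, 591 and 498 CPM, Ulk1OV libraries 558, 552 and 636 CPM, and the doubly labelled ones 469, 438 and 533 CPM. Every Ulk1OV library lay above every 5xFAD;Ulk1OV library.

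For Miat, WT had 61.8, 47.6 and 58.9 CPM, 5xFAD 63.0, 31.3 and 47.7 CPM, Ulk1OV 60.4, 49.9 and 45.1 CPM, and the doubly labelled group 58.5, 59.6 and 82.1 CPM. The highest value was again that of replicate 3 labelled 5xFAD;Ulk1OV and the lowest that of 5xFAD replicate 2. Snhg11 had these same extremes, at WT values of 326, 331 and 409 CPM, 5xFAD values of 407, 240 and 302.5 CPM, Ulk1OV values of 447, 401 and 401 CPM, and doubly labelled values of 302, 253 and 503 CPM. Snhg14 ran the other way in 5xFAD replicate 2, where it had its highest value: WT had 37.8, 45.5 and 37.9 CPM, 5xFAD 38.8, 54.5 and 43.1 CPM, Ulk1OV 50.1, 35.6 and 43.0 CPM, and the doubly labelled group 35.7, 32.4 and 43.0 CPM.

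**Figure D1:**
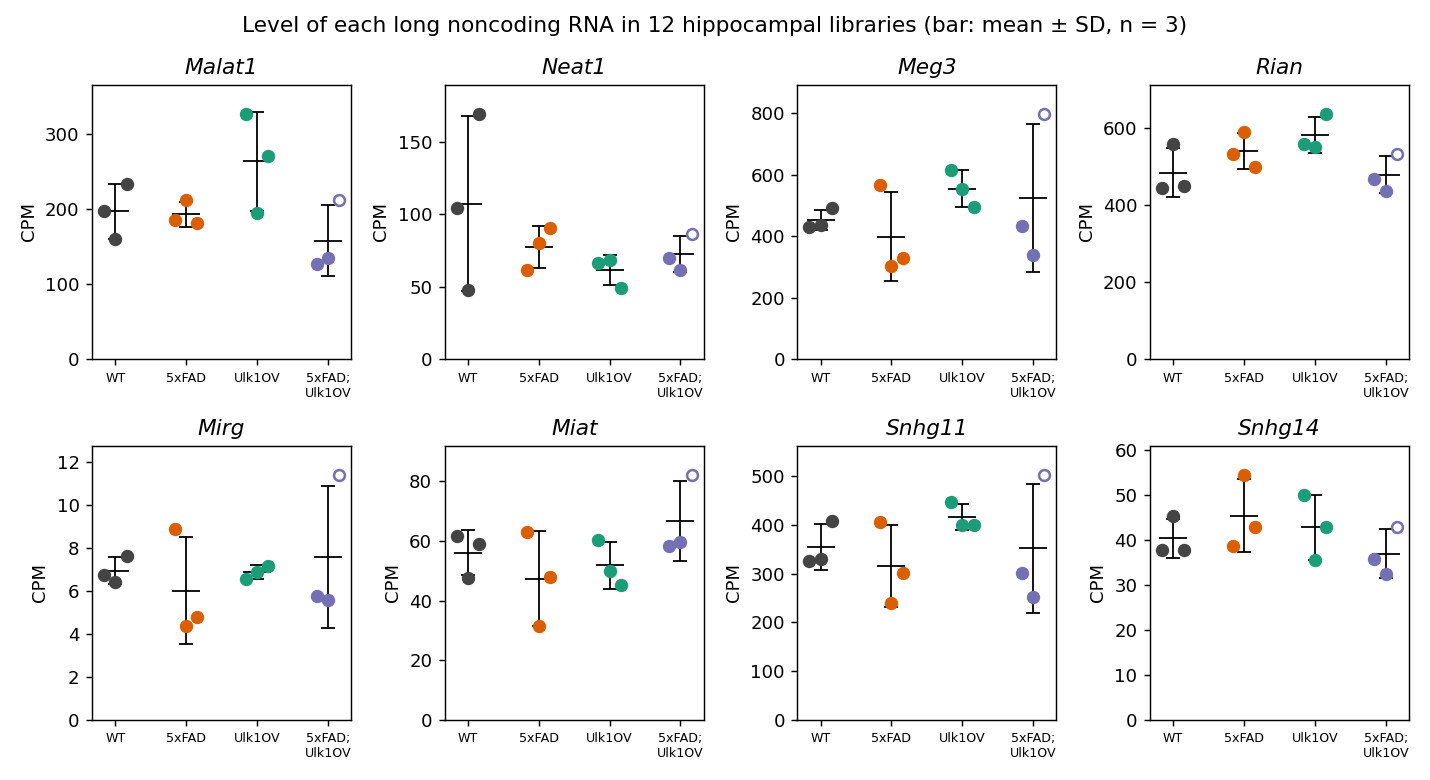
Level of each long noncoding RNA (CPM, y axis from 0) in the 4 groups (x axis). Points are libraries, bars are the mean ± SD of 3 libraries, and the open point is the library labelled 5xFAD;Ulk1OV replicate 3, which has the highest Meg3 (797 CPM), Mirg, Miat and Snhg11 values.

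The comparison of 5xFAD with WT asks what the amyloid model changed. None of the 8 RNAs passed the test there (0 of 8 called by edgeR's quasi-likelihood test at an adjusted p under 0.05, 0% of all genes called), and none had an unadjusted p under 0.05, against 12.4% of all genes. Groups overlapped for all 8, while they did not for 19.5% of all genes. The log2 fold change was negative for 6 RNAs and positive for Rian and Snhg14, with a median of -0.18 against 0.00 over all genes. Malat1 had the smallest difference, -0.03 ± 0.21 (SE), with a 95% interval of -0.48 to 0.42. Neat1 had the largest, -0.47 ± 0.32 (edgeR adjusted p = 0.571), and without WT replicate 3, its highest library, this was 0.02.

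The next comparison asks what Ulk1 overexpression changed on the 5xFAD background, and there too 0 of 8 were called by edgeR (0.0464% of all genes). Only Miat had an unadjusted p under 0.05, against 17.4% of all genes, and groups overlapped for all 8, while they did not for 22.2% of all genes. Miat came nearest, with a mean of 66.7 ± 13.3 CPM in 5xFAD;Ulk1OV and 47.4 ± 15.8 CPM in 5xFAD (SD, n = 3 each). Its log2 fold change was 0.49 ± 0.21 (edgeR adjusted p = 0.249), and 0.33 ± 0.22 once the library labelled 5xFAD;Ulk1OV replicate 3 was dropped (edgeR adjusted p = 0.451). Meg3 had a log2 fold change of 0.39 ± 0.27 (edgeR adjusted p = 0.49), which was -0.03 ± 0.22 without that library, and Mirg went from 0.33 to -0.07 and Snhg11 from 0.16 to -0.17. The positive sign of these 3 thus rested on 1 library. Malat1, Rian and Snhg14 had values of -0.29 ± 0.21, -0.17 ± 0.11 and -0.30 ± 0.15, and with that library left out they were -0.55, -0.24 and -0.40.

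Without 5xFAD, Ulk1OV against WT also called 0 of 8 by edgeR, where 5.17% of all genes were called. The log2 fold change was positive for 5 of 8, with a median of 0.16 against 0.00 over all genes. At an unadjusted p under 0.05 were 2 of 8, Neat1 and Rian, against 24.1% of all genes. Only Meg3 had groups that did not overlap, as did 29.5% of all genes, and its log2 fold change of 0.29 ± 0.27 was close to its SE in size (edgeR adjusted p = 0.545).

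Neat1 had a mean of 107 ± 60.6 CPM in WT and 61.3 ± 10.4 CPM in Ulk1OV (SD, n = 3 each), a log2 fold change of -0.81 ± 0.32 (edgeR adjusted p = 0.141). Without WT replicate 3 it was -0.32 ± 0.27, and without WT replicate 2 it was -1.16 ± 0.22 (edgeR adjusted p = 0.513 and 0.0629). Marker genes of blood vessels, of the brain's borders and of the oligodendrocyte lineage were compared between the same groups. Over the 12 libraries the Pearson r of Neat1 with their log2 sums was 0.706 for oligodendrocyte precursor and 0.633 for endothelial markers. It was 0.531 for oligodendrocyte, 0.497 for choroid plexus and ependymal and 0.219 for meningeal fibroblast markers. These lists had the highest r of those computed. For the others r was 0.078 (GABAergic neuron), -0.103 (protein-coding genes of mitochondrial DNA), -0.122 (microglia), -0.391 (astrocyte) and -0.414 (neuron). The 8 endothelial markers, none at 0, summed to 85.7, 59.4 and 86.0 CPM in WT replicates 1, 2 and 3, lowest in replicate 2 as Neat1 was, and to 52.5 to 64.6 CPM in Ulk1OV, which overlapped, with 1 of 8 called lower (Tek). In 5xFAD;Ulk1OV replicate 2, with 80.9 CPM of these markers, Neat1 was at 61.7 CPM. The 7 meningeal fibroblast markers summed to 208 to 295 CPM in WT and 111 to 153 CPM in Ulk1OV, with 5 of 7 called lower. The 8 choroid plexus and ependymal markers summed to 6289 CPM in WT replicate 3, where Neat1 was highest, and to 4258 CPM in Ulk1OV replicate 1, where Neat1 was at 66.2 CPM. In the other 10 libraries they summed to 37.4 to 378 CPM, and 0 of 8 were called by edgeR. The 6 oligodendrocyte precursor markers summed to 408, 365 and 482 CPM in WT replicates 1, 2 and 3, in the order of Neat1. In Ulk1OV they summed to 358 to 483 CPM, and edgeR called 0 of 6. The 10 oligodendrocyte markers summed to 10133, 8549 and 14237 CPM in WT and to 11459 to 12999 CPM in Ulk1OV, with 0 of 10 called. The part of these cells in the Neat1 values was not tested.

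Rian averaged 582 ± 46.9 CPM in Ulk1OV and 485 ± 64.2 CPM in WT, a log2 fold change of 0.27 ± 0.11 (edgeR adjusted p = 0.172). Rian has 35.8% GC, and after loess removal of the dependence on GC and length in every library its value was 0.07 ± 0.12. Malat1, at 42.5% GC, had 0.42 ± 0.21 (edgeR adjusted p = 0.235) and 0.29 ± 0.17 with the trend removed.

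Malat1 came nearest to a call when 5xFAD;Ulk1OV was set against Ulk1OV, the effect of 5xFAD among the libraries labelled Ulk1OV. Here too 0 of 8 were called by edgeR, with 6.1% of all genes called. Malat1 averaged 158 ± 47.1 CPM in 5xFAD;Ulk1OV and 264 ± 66.0 CPM in Ulk1OV (SD, n = 3 each). The log2 fold change was -0.74 ± 0.21, with a 95% interval of -1.19 to -0.29 and an edgeR adjusted p of 0.0525. Leaving out the library labelled 5xFAD;Ulk1OV replicate 3, whose Malat1 level of 212 CPM lies inside the Ulk1OV range, left 127 and 135 CPM, below all 3 Ulk1OV libraries. The log2 fold change was then -0.999 ± 0.19 and passed (edgeR adjusted p = 0.0123). Removing the GC and length trend as well, it was -0.79 ± 0.15 (edgeR adjusted p = 0.0175), and with the trend removed over all 12 libraries -0.55 ± 0.17 (edgeR adjusted p = 0.111). DESeq2 called it on all 12 libraries (-0.74, DESeq2 adjusted p = 0.00693). DESeq2 also called more genes in this comparison than edgeR did. The share of all genes called without the library labelled 5xFAD;Ulk1OV replicate 3 is not given here.

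Other gene groups moved in this comparison too. Protein-coding genes carried by mitochondrial DNA were called lower by edgeR in 7 of 13 cases, and none was at 0. They summed to 30456 and 29547 CPM in the first 2 libraries labelled 5xFAD;Ulk1OV and to 43006 CPM in replicate 3, against 50600.2 to 66878 CPM in Ulk1OV. With mitochondrial genes removed from the libraries Malat1 was at -0.74 ± 0.21 (edgeR adjusted p = 0.0522). Of the 7 meningeal fibroblast markers 4 were called higher, none at 0, with sums of 293, 305 and, in replicate 3, 144 CPM against 111 to 153 CPM in Ulk1OV. The 8 GABAergic neuron markers, none at 0, summed to 1346, 1207 and, in replicate 3, 1458 CPM, against 1560 to 1657 CPM in Ulk1OV. Of these 7 had a log2 fold change below 0, and 1 of 8 was called lower (Vip, edgeR adjusted p = 0.033), against 6.1% of all genes called. Replicate 3 lay nearer to Ulk1OV than its 2 partners did in Malat1 and in these 3 lists, but not everywhere. It lay farther than they did in Mirg (11.4 CPM against 6.55 to 7.19 CPM in Ulk1OV) and Miat (82.1 against 45.1 to 60.4 CPM). The same held for summed neuron (10374 against 11397 to 12235 CPM) and oligodendrocyte markers (15016 against 11459 to 12999 CPM). The part of the mitochondrial, meningeal fibroblast and GABAergic lists in the Malat1 values was not tested.

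In the same comparison 2 of 8 had an unadjusted p under 0.05, Malat1 and Rian, against 24.8% of all genes. Rian was the only one whose groups did not overlap, as in 27.6% of all genes. Its log2 fold change was -0.28 ± 0.11 (edgeR adjusted p = 0.147), or 0.01 ± 0.12 after removal of the GC and length trend. Snhg11 had -0.24 ± 0.22, and -0.57 ± 0.18 without the library that stood apart from its label (edgeR adjusted p = 0.0676). Meg3 had -0.08 ± 0.27, and -0.51 ± 0.22 without it (edgeR adjusted p = 0.159).

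The interaction asks whether the effect of Ulk1 overexpression differed between the 5xFAD and WT backgrounds. It called 0 of 8 by edgeR, while 12.8% of all genes were called. At an unadjusted p under 0.05 were 2 of 8, Rian and Malat1, against 29.4% of all genes. Rian had the smallest p, with -0.44 ± 0.16 (edgeR adjusted p = 0.0895), or 0.07 ± 0.17 after removal of the GC and length trend. Malat1 had -0.71 ± 0.29 (edgeR adjusted p = 0.126), or -0.96 ± 0.25 on leaving out the library labelled 5xFAD;Ulk1OV replicate 3 (edgeR adjusted p = 0.0273). Neat1 had 0.71 ± 0.45 and Miat 0.61 ± 0.30 (edgeR adjusted p = 0.318 and 0.194). Neat1 passed without WT replicate 2 (1.06 ± 0.29, edgeR adjusted p = 0.0479) and stood at 0.22 ± 0.36 without WT replicate 3. Miat passed without 5xFAD replicate 1 (0.89 ± 0.27, edgeR adjusted p = 0.0411). Without the library labelled 5xFAD;Ulk1OV replicate 3 Miat stood at 0.46 ± 0.29 (edgeR adjusted p = 0.315). The share of all genes called in each of these fits with a library left out is not given here.

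**Figure D2:**
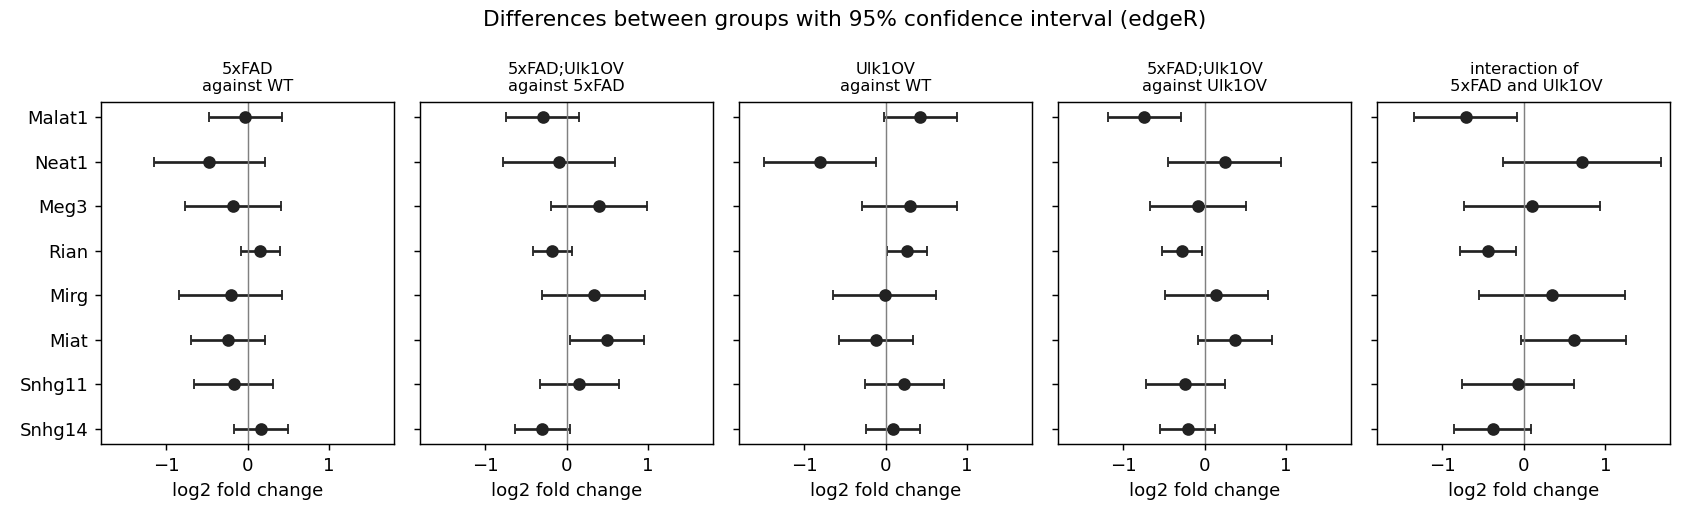
Log2 fold change (x axis) of each long noncoding RNA (y axis) in the 4 comparisons and their interaction, from edgeR over all 12 libraries, with 95% confidence intervals as bars. The interval of Malat1 in 5xFAD;Ulk1OV against Ulk1OV, -1.19 to -0.29, lies farthest from 0.

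Removing the dependence on GC content and length, which was done for both together, moved the differences of the 8 RNAs unequally. The members poorest in GC were Snhg14 (31.0%) and Rian (35.8%), and Miat was richest (55.1%). Snhg14 changed sign in all 4 comparisons and the interaction, and Rian in 3 of the 4 comparisons and the interaction; in Ulk1OV against WT, where Rian kept its sign, it went from 0.27 to 0.07. None of these values had been called. Malat1 kept its sign in all 5, and Miat did so in 4, its exception being Ulk1OV against WT (-0.11 and, with the trend removed, 0.02).

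Libraries of 1 group differed more in most of the 8 RNAs than in the typical gene. The SD within groups on the log2 scale was 0.51 for Neat1, 0.41 for Meg3, 0.40 for Mirg, 0.34 for Snhg11, 0.32 for Miat, 0.31 for Malat1, 0.22 for Snhg14 and 0.14 for Rian. Over the 12019 genes with a mean of at least 5 CPM, the median was 0.15 and the 95th percentile 0.39. Neat1, Meg3 and Mirg lay above that percentile, although counting error is larger for Mirg, and only Rian lay below the median. Over all 17227 tested genes the median was 0.20 and the 95th percentile 0.72, which none of the 8 exceeded. The high values rested on single libraries. Without the library labelled 5xFAD;Ulk1OV replicate 3, Meg3 and Mirg both stood at 0.30, below a 95th percentile of 0.38 over the same genes. Without 5xFAD replicate 1 they stood at 0.35 and 0.32 against 0.36, and without 5xFAD;Ulk1OV replicate 2 Meg3 stood at 0.37 against 0.40. Neat1 was at 0.31 without WT replicate 2, against 0.39.

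**Figure D3:**
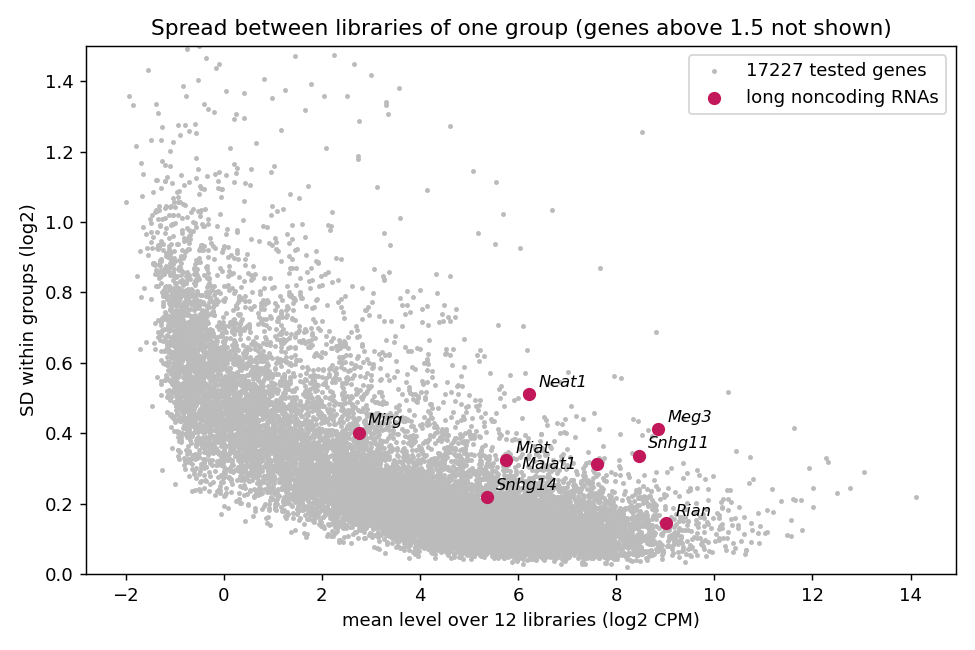
SD within groups (log2, y axis) against mean level (log2 CPM, x axis) for 17227 tested genes in grey and the 8 long noncoding RNAs in colour. At their level Neat1 (0.51) and Meg3 (0.41) lie above most genes, and Rian (0.14) lies among them.

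Meg3, Mirg and Snhg11 varied together. Across the 12 libraries Meg3 and Snhg11, which are on different chromosomes, had a Pearson r of 0.949 (permutation p = 1e-05, the smallest that 100000 resamples can give; 0.00028 adjusted over 28 pairs) and a Spearman rho of 0.916 (permutation p = 0.0001, adjusted 0.0028). It was 0.913 without the 2 libraries farthest from the median of Meg3, and 0.965 over deviations from group means. The ratio of Snhg11 to Meg3 counts stayed between 0.631 and 0.923, a coefficient of variation of 9.76%. Without the library that stood apart from its label r was 0.939.

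Meg3 and Mirg, from 1 imprinted domain, had an r of 0.905 (permutation p = 3e-05, adjusted 0.00042) and a rho of 0.832 (permutation p = 0.00132, adjusted 0.0123). It was 0.774 without the 2 farthest libraries, 0.845 without the library that stood apart from its label, and 0.940 within groups. Mirg and Snhg11 had an r of 0.857 (permutation p = 0.00025, adjusted 0.00233) and a rho of 0.853 (permutation p = 0.00072, adjusted 0.0101). Their r was 0.721 without the 2 farthest libraries, 0.813 without the library that stood apart from its label, and 0.927 within groups. These 3 pairs are the only ones of 28 that passed by both measures. With GC and length trends removed their r was 0.944, 0.911 and 0.916.

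For Rian, which lies between Meg3 and Mirg, no relation with either passed the test. Its r with Meg3 was 0.219 (permutation p = 0.494, adjusted 0.778) with a rho of 0.245 (permutation p = 0.443, adjusted 0.734), 0.524 without the 2 farthest libraries and 0.543 with GC and length trends removed. Its r with Mirg was 0.049 (permutation p = 0.88, adjusted 0.947) with a rho of 0.014 (permutation p = 0.973), and 0.424 with the trends removed. The ratio of Meg3 to Rian counts ran from 0.510 to 1.495, a 2.93-fold range, whereas that of Mirg to Meg3 counts ran from 0.0106 to 0.0165. The difference between the correlations was not tested. The lowest ratio of Meg3 to Rian was in 5xFAD replicate 2 and the highest in the library labelled 5xFAD;Ulk1OV replicate 3.

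**Figure D4:**
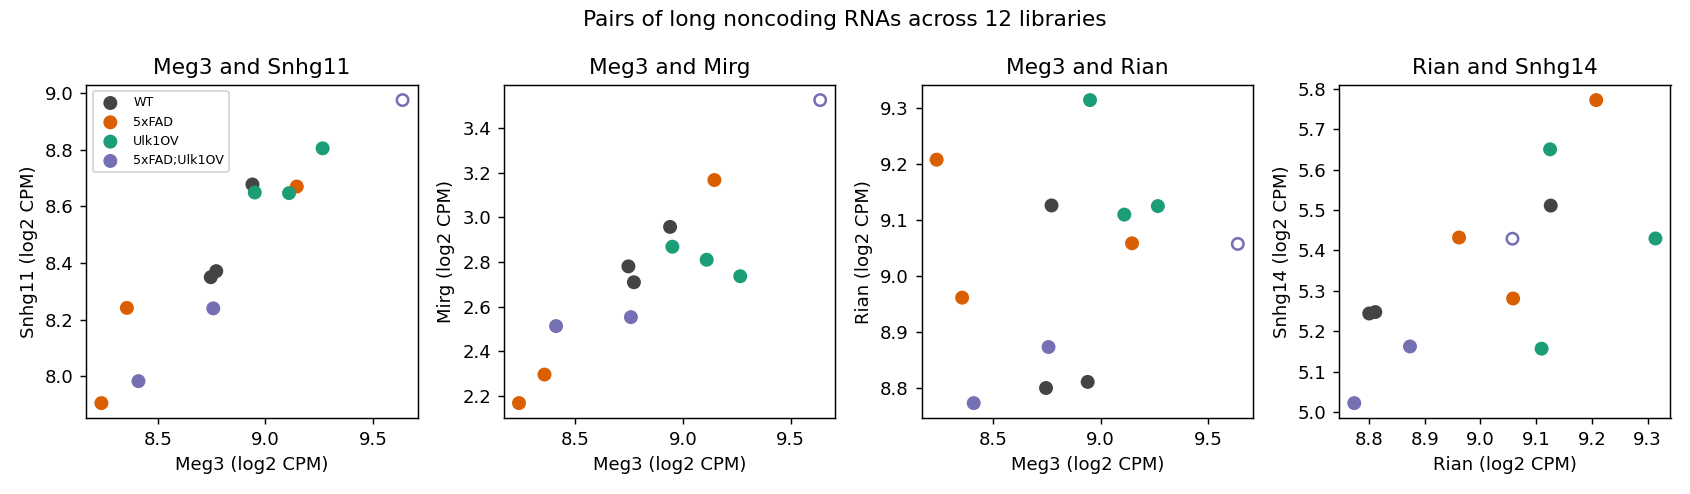
Pairs of long noncoding RNAs on log2 CPM axes, 1 point per library, coloured by group, with the library labelled 5xFAD;Ulk1OV replicate 3 as an open point. Meg3 with Snhg11 (r = 0.949) and with Mirg (r = 0.905) fall along a line, and Meg3 with Rian (r = 0.219) is scattered.

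Miat followed them in part. Its r with Mirg was 0.755 (permutation p = 0.00647, adjusted 0.0453) and its rho 0.573 (permutation p = 0.0554, adjusted 0.235). Without the 2 libraries farthest from the median of Mirg r was 0.294, so the relation was weaker over the others. Dropping these also narrows the range of Mirg, which by itself tends to lower r. Its r with Meg3 was 0.691 (permutation p = 0.013, adjusted 0.0711) and with Snhg11 0.601 (permutation p = 0.0355, adjusted 0.139). These were 0.198 and -0.002 without the 2 farthest libraries. Without the library that stood apart from its label, the r of Miat with Mirg, Meg3 and Snhg11 was 0.622, 0.538 and 0.453. Its r with Meg3, Snhg11 and Mirg was 0.794, 0.782 and 0.778 once the trends were removed. Over deviations from group means, trends kept, it was 0.787, 0.814 and 0.763. Rian and Snhg14, the GC-poor pair, had an r of 0.681 (permutation p = 0.0152, adjusted 0.0711) and a rho of 0.706 (permutation p = 0.0129, adjusted 0.0904), 0.558 without the 2 farthest libraries and 0.438 with the trends removed. The neighbours Malat1 and Neat1 had an r of 0.151 (permutation p = 0.64, adjusted 0.896) and a rho of 0.175 (permutation p = 0.59, adjusted 0.804), 0.281 without the 2 farthest. The ratio of their counts ran from 1.38 to 5.49.

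**Figure D5:**
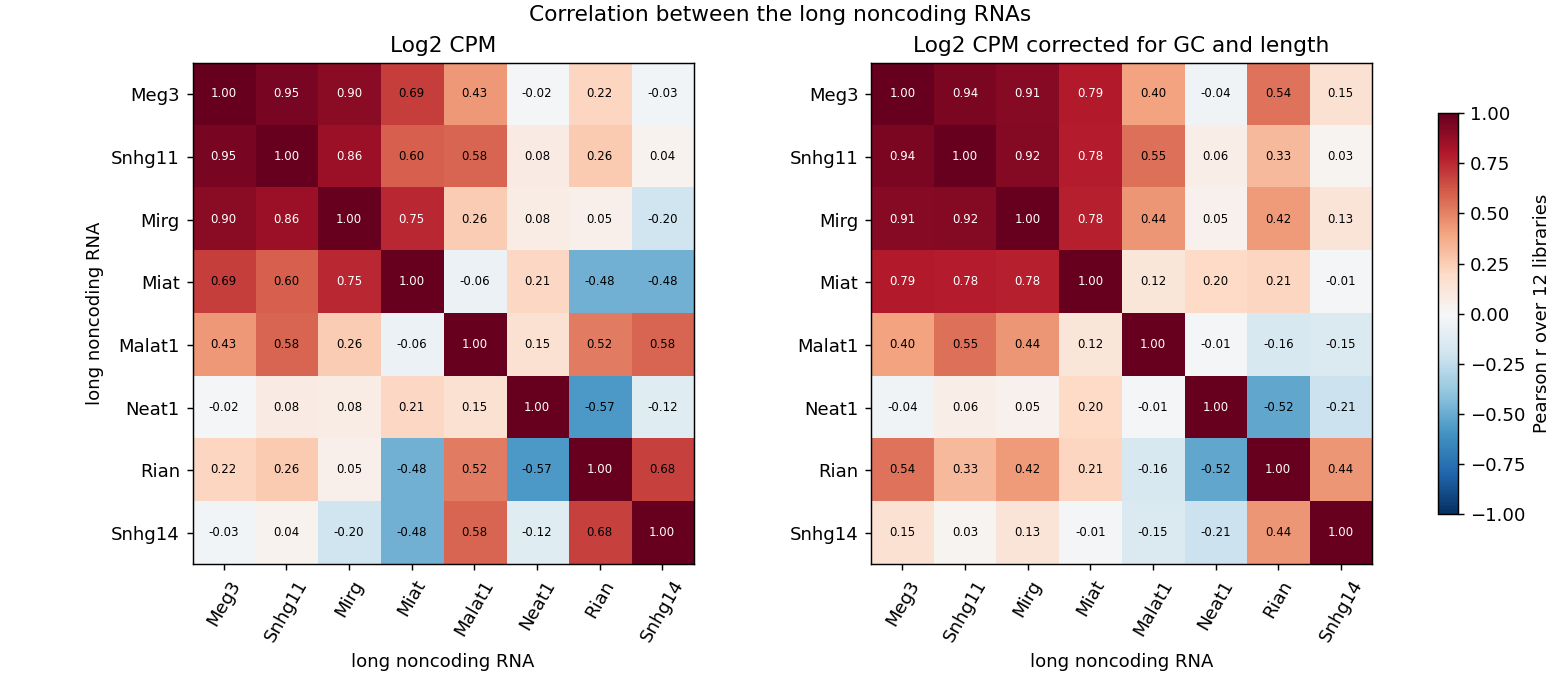
Pearson r between the 8 long noncoding RNAs over 12 libraries, from log2 CPM (left) and from log2 CPM after removal of the GC and length trends (right). Meg3, Snhg11 and Mirg form a block with r of 0.857 to 0.949 on the left, and Miat is closer to it on the right.

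Each RNA was also set against the 12018 other genes with a mean of at least 5 CPM, and the most alike genes over the 12 libraries are given as a description, having been picked as the highest of that many values. For Meg3 the most alike gene of all was Snhg11, and for both Mirg and Snhg11 it was Meg3. Next after Meg3 for Snhg11 was Mir124a-1hg, a host of the neuronal microRNA miR-124, with an r of 0.921 that was 0.911 with GC and length trends removed. For Malat1 it was Ago3, an Argonaute protein (0.937, and 0.850 with the trends removed), and for Neat1 it was Zfp36, which binds AU-rich mRNAs for decay (0.885 and 0.846). Miat was most like Zgpat (0.927 and 0.732), and next like Snrnp70, a U1 snRNP protein (0.924 and 0.891). For Rian it was Gm14117 (0.951), which fell to 0.220 with the trends removed, and for Snhg14 it was Cbll1 (0.918), which fell to 0.529.

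Genes of the bodies and pathways around these RNAs were mostly uncalled as well. Counts of calls in these lists stand against 5.17% of all genes called in Ulk1OV against WT, 6.1% in 5xFAD;Ulk1OV against Ulk1OV and 12.8% in the interaction, and nothing particular to a list is read from them. Of 20 paraspeckle proteins, the partners of Neat1, edgeR called 0 in the comparisons of 5xFAD with WT and of 5xFAD;Ulk1OV with 5xFAD. Ulk1OV against WT called 1 lower, the RNA-binding protein Ewsr1 (-0.35 ± 0.09, edgeR adjusted p = 0.0452), and 5xFAD;Ulk1OV against Ulk1OV called 2 higher, Ewsr1 (0.44 ± 0.09, edgeR adjusted p = 0.0197) and Hnrnpa1 (0.26 ± 0.07, edgeR adjusted p = 0.0402). With GC and length trends removed Ewsr1 in Ulk1OV against WT was -0.25 and did not pass (edgeR adjusted p = 0.0956). Hnrnpa1 did not in 5xFAD;Ulk1OV against Ulk1OV when the library labelled 5xFAD;Ulk1OV replicate 3 was left out (edgeR adjusted p = 0.0503). The Ewsr1 call in Ulk1OV against WT was kept in 7 of 19 alternatives. In 5xFAD;Ulk1OV against Ulk1OV the Ewsr1 call was kept in 15 of 19 and that of Hnrnpa1 in 8 of 19. The genes that the interaction called included Hnrnpa1, Ewsr1 and Taf15, which were higher, and Matr3, which was lower. Of these, Hnrnpa1 (0.49 ± 0.10) was called under all 18 alternatives, and Matr3 went from -0.42 to -0.01 with the trends removed. Ewsr1 and Taf15 did not pass with the trends removed either (edgeR adjusted p = 0.0616 and 0.0539). Of 20 nuclear speckle proteins, the surroundings of Malat1, edgeR called 0 in the 4 comparisons, and the interaction called Sart1 higher and the scaffold protein Son (-0.52 ± 0.14, edgeR adjusted p = 0.0292) and Srsf11 lower. With the trends removed Son passed (edgeR adjusted p = 0.0412), and Sart1 and Srsf11 did not (edgeR adjusted p = 0.168 and 0.117).

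Pabpn1, the nuclear poly(A)-binding protein that helps direct nuclear noncoding RNAs to the exosome, was the gene called in most comparisons among the 17 tested genes of the nuclear exosome and its adaptors. WT averaged 23.1 ± 3.19 CPM, 5xFAD 14.0 ± 2.92 CPM, Ulk1OV 12.2 ± 2.00 CPM and 5xFAD;Ulk1OV 23.3 ± 0.56 CPM (SD, n = 3 each). It was lower in Ulk1OV than in WT (-0.91 ± 0.16, edgeR adjusted p = 0.0222) and higher in 5xFAD;Ulk1OV than in Ulk1OV (0.93 ± 0.16, edgeR adjusted p = 0.016), the only call of the list in each. Each was kept in 16 of 19 alternatives. It was lost in Ulk1OV against WT without Ulk1OV replicate 3, WT replicate 1 or WT replicate 2, and in the other comparison without replicate 1 or 2 of 5xFAD;Ulk1OV or without Ulk1OV replicate 3. The interaction was 1.65 ± 0.23 (edgeR adjusted p = 0.0034) and was called under all 18 alternatives, 1.25 ± 0.23 with GC and length trends removed. The interaction also called Exosc5 higher and Zfc3h1 lower, and neither passed with the trends removed (edgeR adjusted p = 0.0891 and 0.115).

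Of the 4 tested protein-coding neighbours in the Dlk1-Dio3 domain, Dlk1, Rtl1, Dio3 and Begain, 0 were called in any comparison. Their medians were -0.17, 0.64, 0.25, 0.18 and, for the interaction, 0.34 on the log2 scale, with all 4 above 0 in 5xFAD;Ulk1OV against 5xFAD. The median over all genes was -0.001 there. The SEs were wide: Dlk1 had 0.76 ± 0.34, Rtl1 0.52 ± 0.38, Dio3 1.10 ± 0.61 and Begain 0.17 ± 0.17. Rtl1 rested on 16 to 52 counts per library and Dio3 on 18 to 148. Of the 6 tested genes of the Prader-Willi and Angelman domain, the interaction called Ube3a, the ubiquitin ligase that Snhg14 overlaps (-0.59 ± 0.14, edgeR adjusted p = 0.0189), and it was -0.09 ± 0.10 with the trends removed. The ratio of Snhg14 to Ube3a counts stayed between 0.377 and 0.525. Of 14 other tested snoRNA hosts, Zfas1 was higher in 5xFAD;Ulk1OV than in Ulk1OV (0.76 ± 0.17, edgeR adjusted p = 0.0261), and the interaction called Zfas1 and Snhg20 higher. With the trends removed Zfas1 passed in both (edgeR adjusted p = 0.0305 and 0.0367) and Snhg20 did not (edgeR adjusted p = 0.133). Of 17 other tested long noncoding RNAs, Dleu2 was lower in 5xFAD;Ulk1OV than in Ulk1OV (-0.63 ± 0.17, edgeR adjusted p = 0.0482), and the interaction called Dleu2 and Tug1 lower. With the trends removed Dleu2 passed in neither (edgeR adjusted p = 0.329 and 0.346), nor did Tug1 in the interaction (-0.04, edgeR adjusted p = 0.899). Tug1 did not pass either without the library labelled 5xFAD;Ulk1OV replicate 3 (edgeR adjusted p = 0.0795). In 5xFAD;Ulk1OV against Ulk1OV the Zfas1 call was kept in 14 of 19 alternatives and that of Dleu2 in 6 of 19.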

How the data were processed

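The authors deposited whole-number read counts per gene, not normalized, for 12 libraries prepared, per the labels, by the NEBNext Ultra RNA protocol. The submitters' processing notes name build mm10, HISAT2, featureCounts, SAMtools, DESeq2, FastQC and Trim Galore. Settings, annotation and strand were not given in the sources used here. The 8 RNAs and the other gene lists were chosen with earlier results of these data known.

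From the counts, edgeR 4.0.16 (R 4.3.3) tested 17227 genes that passed its default low-count filter, with TMM scaling and the quasi-likelihood F test. All 12 libraries entered 1 fit of 4 group means, with Benjamini-Hochberg adjustment over all genes tested and a call at an adjusted p under 0.05. Errors are SE of log2 fold changes or SD over 3 libraries. Correlations used log2 CPM (prior count 2) with 100000 permutations. With 3 against 3 libraries the smallest exact two-sided permutation p is 0.1, so none was used for single genes. Alternatives were DESeq2 1.42.0, its size factors, no filter, a replicate block, the 6 libraries compared, mitochondrial genes removed, each library left out, and a loess correction (span 0.4) for GC content and length, which 17111 tested genes had in GENCODE M21. Leaving out the library labelled 5xFAD;Ulk1OV replicate 3 together with that correction, and in the correlations, was added after seeing the data, as were correlations on corrected values and the spread within groups with each library left out. Besides the 8 RNAs, the other genes named were, of each list, up to 4 with the smallest p in Ulk1OV against WT and up to 2 in each other comparison, and the 3 most alike genes of each RNA; Taf15, Matr3, Srsf11, Exosc5, Zfc3h1 and Tug1 in the interaction were named after their values were seen. A result of the interaction in the paraspeckle list is not reported here. The edgeR fit was tested on simulated data. Replicates of a group differed by 6.78 to 27.5 times the chi-square expected from sampling. No molecular identifiers were used here, so counting error is the least error of a count.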

Additional observations from a re-analysis of the deposited data

How the results depend on the processing

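The count of called RNAs, 0 of 8 by edgeR in each of the 4 comparisons and the interaction, was the same with DESeq2's size factors, with the GC content and length correction, with mitochondrial genes removed and, for the 4 comparisons, with only the 6 libraries compared. In 5xFAD;Ulk1OV against Ulk1OV it was 1, Malat1, with DESeq2, with a replicate block (edgeR adjusted p = 0.0392), and with the GC content and length correction without the library labelled 5xFAD;Ulk1OV replicate 3. Leaving out 1 library gave 0 to 1 there (Malat1, without that library or without Ulk1OV replicate 2) and 0 to 1 in the interaction. With no filter on low counts, 31643 genes were fitted, the SE of Malat1 in 5xFAD;Ulk1OV against Ulk1OV went from 0.21 to 0.11, and the counts were 1 for 5xFAD against WT (Neat1), 2 for 5xFAD;Ulk1OV against 5xFAD (Meg3, Miat), 2 for Ulk1OV against WT (Malat1, Neat1), 2 for 5xFAD;Ulk1OV against Ulk1OV (Malat1, Miat) and 3 for the interaction (Malat1, Neat1, Miat); the cause was not tested. DESeq2 called 0 of 8 in the other 3 comparisons and the interaction. Counts over all genes, against which those of the 8 are set, moved more: with no filter they were 551, 901, 2079 and 2097 in the 4 comparisons in the order just given, against 0, 8, 891 and 1051, with DESeq2 141, 723, 1850 and 2035, and with the GC content and length correction 0, 0, 521 and 371. Calls fell to 0 in Ulk1OV against WT without Ulk1OV replicate 3, WT replicate 1 or WT replicate 2, and to 0 in 5xFAD;Ulk1OV against Ulk1OV without replicate 1 or replicate 2 of 5xFAD;Ulk1OV or without Ulk1OV replicate 3, the related genes named in the report included. The interaction called 902 with the correction and 974 without Ulk1OV replicate 3, against 2197. Counts over all genes are not given for the replicate block or for the interaction with no filter. Nor are they given for the fits without 1 library that called 1 of the 8. Nothing particular to the 8 RNAs is read from the calls in those fits. Replicate numbers did not pair the samples: same-numbered libraries of different groups had correlations of deviations of -0.18 to 0.22, with 4 of 18 pairs over 0.1, and 5 of 12 libraries correlated best with their own number. Of 752 log2 fold changes of the 8 RNAs under these alternatives, 36 changed sign, none of them called. With the GC content and length correction, Rian stood at -0.057 for 5xFAD against WT, 0.14 for 5xFAD;Ulk1OV against 5xFAD, 0.011 for 5xFAD;Ulk1OV against Ulk1OV and 0.068 for the interaction, and Snhg14 in the same order at -0.095, 0.086, 0.15 and 0.25, and at -0.16 for Ulk1OV against WT. That correction gave 0.081 for Neat1 in 5xFAD;Ulk1OV against 5xFAD, 0.054 for Mirg and 0.022 for Miat in Ulk1OV against WT, and 0.12 for Snhg11 in the interaction, and the replicate block gave 0.0024 for Malat1 in 5xFAD against WT. With each library left out in turn, signs turned within these ranges: in 5xFAD against WT, Malat1 -0.16 to 0.11 and Neat1 -0.82 to 0.023; in 5xFAD;Ulk1OV against 5xFAD, Neat1 -0.23 to 0.033, Meg3 -0.028 to 0.75, Mirg -0.066 to 0.74 and Snhg11 -0.17 to 0.39; in Ulk1OV against WT, Mirg -0.066 to 0.062 and Snhg14 -0.040 to 0.19; in 5xFAD;Ulk1OV against Ulk1OV, Meg3 -0.51 to 0.15 and Mirg -0.26 to 0.32; in the interaction, Meg3 -0.31 to 0.46, Mirg -0.043 to 0.76 and Snhg11 -0.39 to 0.18. Counting error weighs most on Mirg, which rests on 78 to 205 counts per library.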
